A study of Mus musculus with 27 samples.

Results

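Interferon response genes are genes that cells switch on after interferons bind their receptors. The 41 genes described here were chosen by name as known members of that response and matched to the Ensembl identifiers of the count table, 1 identifier each, out of 52550 genes in the table. All 41 had enough counts to be tested in every comparison. RNA of 3 gut regions (ileum, cecum, colon) was poly-A selected and sequenced in male C57BL/6 mice, 6 weeks old at the start, which after 7 days of acclimatization ate control feed or arsenic feed for 60 days. Control feed was the standard feed, and arsenic feed was the same feed with total arsenic at 30 µg/g, added as sodium arsenite (72.7%), sodium DMA (19.0%), sodium arsenate (7.3%) and sodium MMA (1.0%). The 27 libraries formed 6 groups: control ileum (n = 4), arsenic ileum (n = 5), control cecum (n = 4), arsenic cecum (n = 5), control colon (n = 5) and arsenic colon (n = 4). All mice shared strain and sex, 10 were kept on each feed, and the labels do not say whether libraries with the same number came from the same mouse. P-values therefore measure the spread between libraries of a group.

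Type I interferons (alpha and beta) and type III interferons (lambda) signal through JAK kinases to a complex that includes STAT2 and IRF9 and binds a DNA element called the interferon-stimulated response element (ISRE). Interferon gamma, made mainly by T cells and natural killer cells, signals to a STAT dimer that binds a different element, the gamma-activated sequence (GAS), and raises IRF1. The target genes include sensors of foreign nucleic acid, antiviral effectors that degrade or block viral RNA, GTPases that attack the vacuoles of intracellular microbes, and chemokines that draw T cells. In the gut, epithelial cells hold a standing level of these genes even without infection, and resident microbes are known to influence it.

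The response genes were present throughout while most of the interferon genes looked up were at or near 0. Of the alpha family only Ifna1, Ifna2, Ifna4 and Ifna5 were looked up. Ifnb1, Ifne, Ifnl2, Ifna1, Ifna4 and Ifna5 had 0 counts among the 462462053 counts of all libraries, which allows a level of up to 0.00649 CPM (counts scaled to library size by the TMM method) at 3 counts over all libraries, for counting error only. Ifnl3 and Ifna2 had 1 count each, Ifnk had 16, and Ifng, the interferon gamma gene, had 63 counts spread over 19 libraries. Among the 41 genes, the mean level over all libraries was highest for Irf7, the master regulator of type I interferon induction, at 393 CPM. It was followed by Oasl2, an OAS-like protein, at 247 CPM, Irf1 at 191 CPM, Parp14, a mono-ADP-ribosyltransferase, at 184 CPM and Ifih1, the MDA5 sensor of long double-stranded RNA, at 144 CPM. Divided by exonic length, the level was again highest for Irf7, at 104 CPM per kb, followed by Isg15, a ubiquitin-like modifier, at 82.2 and Oas1a, which makes the 2-5A messenger that activates RNase L, at 54.96 CPM per kb. Trim30b was lowest by both scales, at 1.30 CPM and 0.173 CPM per kb.

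Libraries held 15717600 to 18208518 counts, so depth was similar throughout. Of 6 ileum markers 5 were lower in control cecum than ileum and 5 in colon than ileum, and of 6 cecum and colon markers tested 4 were higher in cecum and 6 in colon; Prdx6b, a further one, was at 0 in every library. Fabp6, which carries bile acids inside cells of the last stretch of small intestine, was at 219, 1048, 4272 and 1849 CPM in the control ileum and at 3879, 982, 4179.8, 6.13 and 1.33 CPM in the arsenic ileum, so the arsenic libraries 14 and 15 nearly lacked this marker. Slc10a2, the ileal bile acid uptake carrier, was likewise at 8.12 and 4.28 CPM there, against 40.4 CPM or more in the other ileum libraries. Hoxb13, a homeobox gene of the hindgut, was at 0, 68.7, 239, 222 and 45.9 CPM in control colon 1 to 5 and at 162, 40.2, 91.4 and 73.6 CPM in the arsenic colon, so control colon 1 stood apart, also with the highest Slc10a2 of all colon libraries, 418 CPM. Counts of members with near-identical relatives (Oas1a, Ifit3, Trim30a and Trim30b, Gbp6, Igtp and Irgm2, Ifi213) are uncertain, and so are those of genes that overlap another gene, because the strand setting of the counting is not given in the sources used here.

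**Figure D1:**
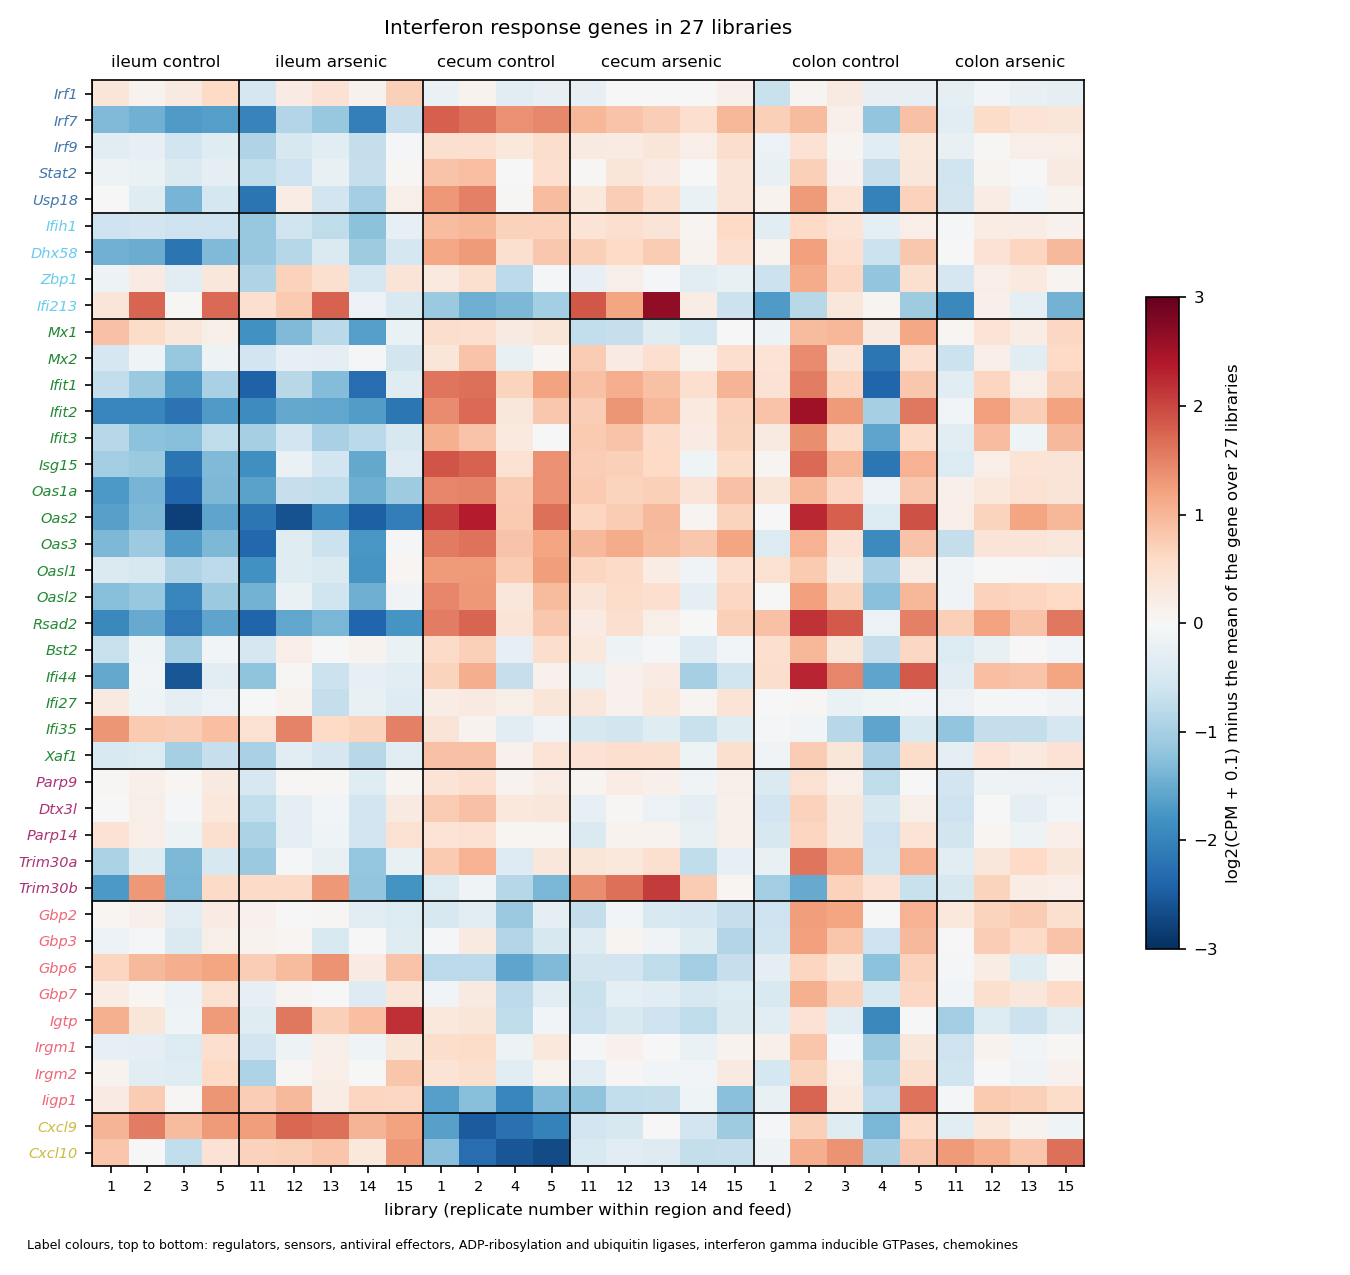
Level of each of the 41 genes (one line per gene, grouped by role) in each of the 27 libraries (columns, grouped by region and feed, numbered as in the labels). Colour is log2(CPM + 0.1) minus the mean of the gene over all libraries. Most antiviral effectors are blue in the ileum and red in the control cecum, and Cxcl9 and Cxcl10 show the reverse, while colon control 4 is blue and colon control 2 red for most genes.

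The promoters of these genes show what they share in sequence. RefSeq promoters (GRCm38.p6, 250 bases before to 50 after the start) were at hand for 30 of the 41 genes. The ISRE core (GAAA, any 2 bases, GAAA), searched on both strands, was present in 18 of these 30 (60.0%), against 3.99% of 27025 genes with a promoter in the same table. The GAS core (TTC, any 3 bases, GAA), which reads alike on both strands, was present in 8 of 30 (26.7%), against 9.55% of genes. The 2 motifs shared bases in 1 member. By role, the ISRE core was found in 6 of 6 GTPases, 7 of 13 antiviral effectors, 2 of 2 sensors, 1 of 4 regulators (Stat2), 1 of 3 ligases (Trim30a) and 1 of 2 chemokines (Cxcl10). A match is a description of letters and not of a bound site. The next windows show matches in effectors that were higher in the cecum than the ileum, with the matching bases in capitals, each read 5′ to 3′ on the strand of its gene.
Oas1a, chr5:120907526-120907575, minus strand: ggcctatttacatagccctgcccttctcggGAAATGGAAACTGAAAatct
Isg15, chr4:156200867-156200916, minus strand: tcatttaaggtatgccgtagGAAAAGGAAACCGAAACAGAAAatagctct
Ifit1, chr19:34640765-34640814, plus strand: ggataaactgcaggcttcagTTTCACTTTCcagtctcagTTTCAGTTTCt
Rsad2, chr12:26456543-26456592, minus strand: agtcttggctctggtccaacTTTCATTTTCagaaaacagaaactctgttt

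A further set of windows belongs to the GTPases Igtp, Irgm2 and Gbp2 and to Cxcl10 and Ifi213. Cxcl10 and Ifi213 were higher in the cecum on arsenic feed. Of the other genes higher there, Cxcl9 and Trim30b had no ISRE core, and Iigp1 had no promoter at hand. Igtp and Irgm2, neighbouring genes on chromosome 11, have 48 of 50 bases in common here. The windows were cut around the match, so its place within the window is set by the search. The match begins 34 bases before the start in Igtp and 64 bases before it in Irgm2. In Cxcl10 the match lies farther upstream, 213 bases before the start.
Igtp, chr11:58199502-58199551, plus strand: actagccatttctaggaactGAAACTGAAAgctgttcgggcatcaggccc
Irgm2, chr11:58214893-58214942, plus strand: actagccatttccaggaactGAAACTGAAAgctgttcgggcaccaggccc
Gbp2, chr3:142620584-142620633, plus strand: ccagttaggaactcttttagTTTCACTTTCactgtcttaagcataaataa
Cxcl10, chr5:92349073-92349122, minus strand: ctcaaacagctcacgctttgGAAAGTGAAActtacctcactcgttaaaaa
Ifi213, chr1:173599316-173599365, minus strand: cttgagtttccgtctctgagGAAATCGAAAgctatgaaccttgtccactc

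The first comparison asked how the interferon response differed along the gut of control mice. Most antiviral effectors were higher in the cecum than in the ileum, while the chemokines and some GTPases were lower. Of the 41 genes, 20 were higher and 7 lower in the control cecum than in the control ileum, at an adjusted p under 0.05 in an edgeR quasi-likelihood test with Benjamini-Hochberg adjustment over all genes. Over all 16882 genes tested, 54.9% were called in this comparison, 28.4% higher and 26.5% lower. The median log2 fold change was 0.75 for the 41 genes and -0.03 for all genes. The 2 regions did not overlap for 24 members, against 54.5% of all genes. Split by role, 13 of 17 antiviral effectors were higher and 1 lower, with a median of 1.79, 4 of 5 regulators were higher and 1 lower, 2 of 4 sensors were higher and 1 lower, 0 of 8 GTPases were higher and 2 lower, and both chemokines were lower. In bulk tissue, fewer cells of a type and less RNA per cell cannot be told apart. With upper-quartile scaling the members split into 16 higher and 7 lower and all genes into 3663 higher and 5859 lower, against 4800 and 4466 with TMM, and the median of all genes moved to -0.19.

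Among the regulators, Irf7 showed the widest gap. Irf7 was at 117, 108, 90.3 and 93.3 CPM in the 4 ileum libraries, 1019, 928, 756 and 798 CPM in the 4 cecum libraries and 483, 567, 324, 129.7 and 536 CPM in the 5 colon libraries. The ileum and cecum libraries did not overlap, and the difference was 3.09 ± 0.36 on the log2 scale (edgeR adjusted p = 1.41e-05). Colon 4 was the lowest of the colon libraries, yet above every ileum library, and Irf7 was higher in colon than ileum by 1.99 ± 0.34 (edgeR adjusted p = 0.000335) and differed by -1.10 ± 0.32 between colon and cecum (edgeR adjusted p = 0.0134). Irf9 and Stat2, partners in the ISRE-binding complex, were higher in cecum than ileum by 0.83 and 0.87, and Usp18, which blocks the type I receptor, by 1.53. Irf1 went the other way, at -0.52 in cecum against ileum and -0.47 in colon against ileum. Of the 13 fits that each left out 1 library, the cecum call of Usp18 was lost in 7 of 13 (adjusted p up to 0.0872, without ileum 3) and that of Irf1 in 4 of 13 (adjusted p up to 0.0709, without ileum 5) with edgeR. The edgeR adjusted p of Usp18 was 0.0535 with upper-quartile scaling and 0.0834 with no filter.

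Of the sensors, Ifih1 and Dhx58 were higher in both lower regions. Ifih1 was at 85.7, 88.9, 86.02 and 86.2 CPM in the 4 ileum libraries, 252, 265, 213 and 213 CPM in the 4 cecum libraries and 107, 201, 177, 110.1 and 153 CPM in the 5 colon libraries. All ileum libraries lay below all others, cecum exceeded ileum by 1.43 ± 0.18 (edgeR adjusted p = 9.55e-06), and colon differed from cecum by -0.65 ± 0.16 (edgeR adjusted p = 0.0048). Dhx58, the LGP2 partner of MDA5, was higher than in the ileum by 2.55 in the cecum and 2.12 in the colon. Ifi213, a member of the PYHIN family of nuclear DNA sensors, had the opposite order. Ifi213 was at 2.32, 6.13, 1.81 and 5.96 CPM in the 4 ileum libraries, 0.769, 0.580, 0.635 and 0.825 CPM in the 4 cecum libraries and 0.476, 0.950, 2.27, 1.89 and 0.787 CPM in the 5 colon libraries. Ileum and cecum did not overlap (-2.53 ± 0.51, edgeR adjusted p = 0.00084), while ileum and colon overlapped (-1.67 ± 0.44, edgeR adjusted p = 0.00575). Zbp1, a sensor of Z-form nucleic acid, was not called in any region comparison (0.00 in cecum against ileum).

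Among the antiviral effectors, Oas2, Ifit2 and Rsad2 had rises over the ileum that were among the 4 largest of all members in both lower regions. Oas2 was at 8.71, 10.6, 3.81 and 9.02 CPM in the 4 ileum libraries, 113, 138, 47.1 and 85.9 CPM in the 4 cecum libraries and 27.2, 131, 93.6, 20.3 and 102 CPM in the 5 colon libraries. Every ileum library lay below every other, and Oas2, an oligoadenylate synthetase, was higher by 3.57 ± 0.64 in cecum than ileum (edgeR adjusted p = 0.000558) and by 3.21 ± 0.61 in colon than ileum (edgeR adjusted p = 0.00102). Ifit2 binds viral RNA together with its relatives Ifit1 and Ifit3. Ifit2 was at 6.22, 6.30, 5.25 and 7.57 CPM in the 4 ileum libraries, 65.7, 80.7, 30.96 and 43.5 CPM in the 4 cecum libraries and 44.99, 143, 59.7, 12.2 and 74.3 CPM in the 5 colon libraries. No ileum library reached any other library, with gaps of 3.11 ± 0.61 for cecum and 3.39 ± 0.60 for colon (edgeR adjusted p = 0.00109 and 0.000602). Rsad2 encodes viperin, an enzyme that makes a chain-terminating nucleotide. Rsad2 was at 5.82, 7.83, 5.06 and 7.51 CPM in the 4 ileum libraries, 65.9, 75.6, 29.97 and 39.6 CPM in the 4 cecum libraries and 41.9, 101, 81.04, 19.8 and 64.3 CPM in the 5 colon libraries. Again the ileum was separate from both, by 2.997 ± 0.48 for cecum and 3.23 ± 0.47 for colon (edgeR adjusted p = 0.000225 and 0.000129).

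Oas1a was at 24.9, 31.02, 15.8 and 32.3 CPM in the 4 ileum libraries, 225, 232, 138 and 211 CPM in the 4 cecum libraries and 106, 164, 126, 72.6 and 144 CPM in the 5 colon libraries. The ileum libraries were the 4 lowest, and cecum exceeded ileum by 2.95 ± 0.28 (edgeR adjusted p = 2.03e-06) and colon exceeded ileum by 2.23 ± 0.27 (edgeR adjusted p = 1.87e-05). Oas1a differed by -0.71 ± 0.25 between colon and cecum (edgeR adjusted p = 0.0314), a call lost in 6 of 13 fits that left out 1 library, with adjusted p up to 0.0787 without cecum 2. Oasl1, which restrains Irf7 translation in mice, was highest in the cecum. Oasl1 was at 65.1, 63.2, 47.2 and 51.1 CPM in the 4 ileum libraries, 216, 214, 149.7 and 211 CPM in the 4 cecum libraries and 121, 152, 106, 44.8 and 103 CPM in the 5 colon libraries. Colon overlapped both other regions, at 0.89 ± 0.27 against ileum (edgeR adjusted p = 0.0134) and -0.90 ± 0.26 against cecum (edgeR adjusted p = 0.0126). The other effectors called higher in cecum than ileum were Isg15 (2.82), Oas3 (2.68), Oasl2 (2.41), Ifit1 (2.41), Ifit3 (1.62), Xaf1 (1.23), Bst2 (0.86) and Ifi27 (0.32). Bst2, or tetherin, holds budding virions on the cell, and in edgeR fits without 1 library its cecum call was lost in 8 of 13 (adjusted p up to 0.0986, without ileum 3) and that of Ifi27 in 6 of 13 (adjusted p up to 0.102, without ileum 2). The adjusted p of Bst2 was 0.0846 with upper-quartile scaling and 0.102 with no filter in edgeR. That of Ifi27 was 0.253 with upper-quartile scaling, 0.0545 with RLE scaling, 0.0527 with no filter and 0.0527 with a filter of 1 CPM in edgeR, and 0.0522 in DESeq2. Neither Mx gene was called: Mx1 had a log2 fold change of -0.10 and Mx2 of 0.75.

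Ifi35 was the effector that was lower outside the ileum. Ifi35 was at 76.3, 52.8, 51.4 and 56.8 CPM in the 4 ileum libraries, 39.7, 32.8, 24.6 and 28.2 CPM in the 4 cecum libraries and 29.7, 29.1, 17.1, 10.2 and 22.4 CPM in the 5 colon libraries. The ileum libraries were the 4 highest, and Ifi35, a leucine zipper protein induced by both interferon types, differed from ileum by -0.93 ± 0.28 in cecum (edgeR adjusted p = 0.0128) and -1.45 ± 0.26 in colon (edgeR adjusted p = 0.000501). In colon against ileum, 13 of 17 effectors were again higher and 1 lower, in a comparison where 27.7% of all genes were higher and 24.5% lower (52.2% called). Over the 41 genes the split was 18 higher and 5 lower, with a median of 0.67, and 9 did not overlap (39.4% of all genes). Ifi44, a microtubule-associated protein of unclear role, was called there (2.21) and not in cecum against ileum (1.26), a difference between comparisons that share the ileum and was not tested itself. Leaving out ileum 3, the ileum library with the lowest level for 35 of the 41 genes, gave 16 higher and 7 lower in cecum against ileum and 14 higher and 5 lower in colon against ileum. The colon calls lost in edgeR fits without 1 library were those of Bst2 in 5 of 13 (adjusted p up to 0.088, without ileum 3), Xaf1 in 5 of 13 (adjusted p up to 0.0821, without ileum 3), Ifit1 in 3 of 13 (adjusted p up to 0.0645, without ileum 3), Ifi44 in 3 of 13 (adjusted p up to 0.0627, without ileum 1) and Irf1 in 1 of 13 (adjusted p up to 0.0887, without ileum 5). Leaving out colon 1, the library without Hoxb13, gave 18 higher and 4 lower in colon against ileum. Leaving out colon 2 gave 14 higher and 6 lower in colon against ileum.

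**Figure D2:**
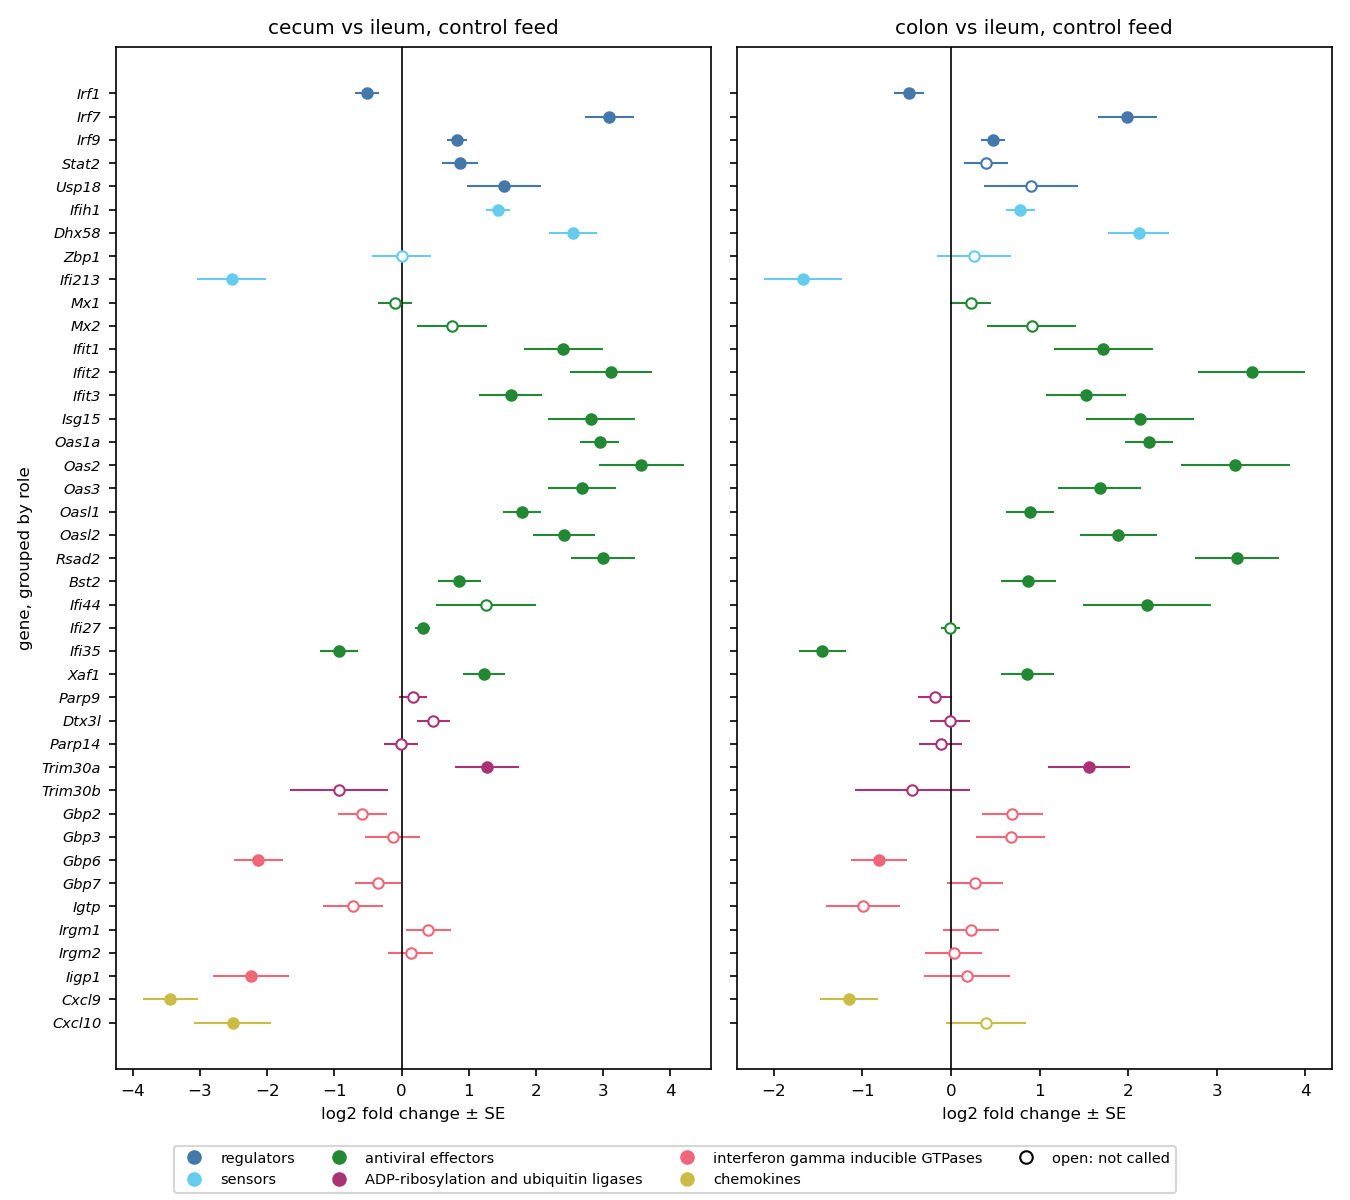
Log2 fold change with its standard error for each of the 41 genes in control cecum against control ileum (left) and control colon against control ileum (right), coloured by role. Filled points passed the edgeR test at an adjusted p under 0.05; both panels share the ileum libraries. Antiviral effectors lie mostly right of 0 in both panels, and Cxcl9, Ifi213, Gbp6 and Ifi35 lie left of 0 in both.

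Both chemokines and 2 of 8 GTPases, families known as targets of interferon gamma, were lower in cecum than ileum. Over all genes 26.5% were lower there, so the share of GTPases was near that of all genes. Cxcl9 was at 6.95, 9.98, 6.62 and 8.43 CPM in the 4 ileum libraries, 1.02, 0.515, 0.635 and 0.761 CPM in the 4 cecum libraries and 3.33, 5.64, 2.61, 1.24 and 5.14 CPM in the 5 colon libraries. The 3 regions did not overlap. Cxcl9, a ligand of the chemokine receptor CXCR3 of T cells, differed from the ileum by a log2 of -3.44 ± 0.41 in cecum and -1.16 ± 0.33 in colon (edgeR adjusted p = 7.73e-06 and 0.00862). Colon exceeded cecum by 2.28 ± 0.40 (edgeR adjusted p = 0.000409). Cxcl10, another CXCR3 ligand, was lowest in the cecum as well. Cxcl10 was at 4.69, 2.61, 1.499 and 3.54 CPM in the 4 ileum libraries, 1.02, 0.451, 0.353 and 0.317 CPM in the 4 cecum libraries and 2.33, 5.59, 6.68, 1.24 and 4.57 CPM in the 5 colon libraries. All cecum libraries lay below all others, with -2.51 ± 0.57 against ileum (edgeR adjusted p = 0.00205) and a gap of 2.91 ± 0.55 between colon and cecum (edgeR adjusted p = 0.000812). Colon and ileum overlapped for Cxcl10 and were not called (0.40).

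Iigp1 is an immunity-related GTPase that coats pathogen vacuoles. Iigp1 was at 15.4, 22.4, 13.4 and 32.8 CPM in the 4 ileum libraries, 4.10, 5.35, 3.31 and 5.14 CPM in the 4 cecum libraries and 11.2, 44.3, 16.03, 7.51 and 40.5 CPM in the 5 colon libraries. The cecum libraries were the 4 lowest, at -2.24 ± 0.57 against ileum (edgeR adjusted p = 0.00535), and colon exceeded cecum by 2.42 ± 0.55 (edgeR adjusted p = 0.00374). Gbp6 is a guanylate-binding protein, a large GTPase of the same defence. Gbp6 was at 4.98, 6.30, 6.87 and 7.25 CPM in the 4 ileum libraries, 1.79, 1.80, 0.987 and 1.21 CPM in the 4 cecum libraries and 2.54, 5.03, 4.08, 1.30 and 5.14 CPM in the 5 colon libraries. Cecum and ileum did not overlap (-2.13 ± 0.37, edgeR adjusted p = 0.000216), and colon, which overlapped both, exceeded cecum by 1.32 ± 0.36 (edgeR adjusted p = 0.0077). Colon differed from ileum by -0.81 ± 0.32 (edgeR adjusted p = 0.0447), a call lost in 8 of 13 fits that left out 1 library, with adjusted p up to 0.103 without ileum 5. Gbp2 was higher in colon than cecum by 1.27, while Gbp3, Gbp7, Igtp, Irgm1 and Irgm2 were called in no region comparison. Among the ligases, Trim30a, a brake on inflammatory signalling, was higher than in the ileum by 1.27 in cecum and 1.55 in colon, and Parp9, Dtx3l, Parp14 and Trim30b were not called. In edgeR fits without 1 library the cecum call of Trim30a was lost in 9 of 13 (adjusted p up to 0.105, without cecum 2), and its adjusted p was 0.0684 with upper-quartile scaling and 0.0941 with no filter.

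Fewer members were called between colon and cecum. Of the 41 genes, 5 were higher and 6 lower in colon than cecum, where 47.2% of all genes were called (21.9% higher, 25.3% lower), and 6 did not overlap (36.8% of all genes). The 5 higher genes were Cxcl10, Iigp1, Cxcl9, Gbp6 and Gbp2, and the 6 lower ones were Irf7, Oasl1, Oas1a, Ifih1, Irf9 and Ifi27. With upper-quartile scaling the members split into 5 higher and 3 lower and all genes into 4458 and 2719, against 3704 and 4266 with TMM. In edgeR fits without 1 library the call of Irf9 was lost in 9 of 13 (adjusted p up to 0.121, without colon 4) and that of Ifi27 in 3 of 13 (adjusted p up to 0.0624, without cecum 5). With upper-quartile scaling the edgeR adjusted p was 0.219 for Irf9, 0.153 for Ifi27 and 0.0798 for Oas1a, and Irf9 was also lost with RLE scaling (0.0849), a filter of 1 CPM (0.0647) and DESeq2 (0.0855), and Oas1a with no filter (0.0797). Without colon 1 the split was 8 higher and 4 lower. Without colon 2 the split was 5 higher and 10 lower, and without colon 4 it was 7 higher and 4 lower.

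The arsenic-fed mice give a second set of libraries for the same order, described here without a test. In the arsenic groups, 14 of 41 genes were higher in every cecum library than in every ileum library, against 19.3% of all genes, and 6 were lower, against 17.1%. The 14 included Irf7, Irf9, Ifih1, Dhx58, Mx2 and 9 other antiviral effectors, and the 6 were Cxcl9, Cxcl10, Ifi35, Gbp6, Igtp and Iigp1. Colon against ileum gave 12 higher and 3 lower without overlap (23.4% and 22.8% of all genes), and colon against cecum 6 higher and 3 lower (19.6% and 24.2%). For Irf7 the ratio of means was 2.08 on the log2 scale for cecum over ileum, for Oas2 2.90 and for Cxcl9 -1.94.

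Other genes of the pathway were tested beside the members. Of 46 further pathway genes tested, 9 were higher and 18 lower in control cecum than ileum, and 5 higher and 19 lower in colon than ileum. The shares called, 58.7% and 52.2%, were near the 54.9% and 52.2% of all genes. The machinery of MHC class I presentation, which loads peptides for T cells, had 0 of 13 genes higher and 8 lower in both comparisons, with the immunoproteasome subunits Psmb9 at -1.93 and Psmb8 at -1.79 in cecum. Among receptors, Ifnar1 of the type I receptor was higher in cecum by 0.67, Ifnar2 differed by -0.94 and Ifngr1 of the gamma receptor by 1.08. The DNA sensor Aim2 was higher by 3.36, and Socs3, a feedback inhibitor of JAK signalling, differed by -3.08. Of 10 T and natural killer cell markers tested, 0 were higher and 10 lower in cecum than ileum, 0 were higher and 9 lower in colon than ileum, and 1 was higher in colon than cecum, where both chemokines were higher. Their summed level was 273 to 484 CPM in control ileum, 25.6 to 47.5 in cecum and 21.3 to 98.0 in colon, with every marker above 0 in each group. Epithelial markers had 6 of 8 higher and 1 lower in cecum, with sums of 13444 to 15889.7 CPM in ileum and 21457 to 23687 CPM in cecum. The part of these cell markers in the regional order was not tested.

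The members also varied together among libraries of one group. Within a group, the library with the lowest level was the same one for most of the 41 genes. Cecum control 4 was lowest for 35 of 41, against 25.6% of all genes, colon control 4 for 33 (20.9% of all genes) and ileum control 3 for 35 (23.3%). Among arsenic libraries, colon 11 was lowest for 38 of 41 (30.6% of all genes), cecum 14 for 30 (16.1%) and ileum 11 for 25 (21.9%). Colon control 2 was highest for 34 of 41 (12% of all genes) and cecum control 2 for 28 (24.1%). Some numbers thus recurred between regions: control 4 and 2 in cecum and colon, and arsenic 11 in ileum and colon but not cecum. Member deviations of same-numbered libraries correlated between -0.48 (control 3, ileum and colon) and 0.74 (arsenic 15, ileum and cecum). Most of these correlations were positive. Pairs with different numbers ran from -0.67 (cecum control 4, colon control 2) to 0.60 (cecum arsenic 13, colon arsenic 12). Whether same-numbered libraries share a mouse was not tested. The summed level of the 41 genes ran from 1429.8 CPM in colon control 4 to 4763 CPM in colon control 2, and from 3247 to 5087 CPM among the control cecum libraries. In the other groups it ran from 1576 to 2213 CPM (control ileum), 1254 to 2696 (arsenic ileum), 2530.4 to 3440.5 (arsenic cecum) and 2001 to 3027 (arsenic colon). The median SD of log2 levels was 0.83 for the members and 0.28 for all genes in control colon, and 0.38 and 0.19 in control cecum.

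Isg15, whose promoter window holds 3 overlapping matches, shows this spread. It was at 49.6, 151, 92.5, 10.4 and 96.6 CPM in control colon 1 to 5, at 174, 159, 63.7 and 120.5 CPM in control cecum 1, 2, 4 and 5 and at 22.4, 21.4, 10.1 and 18.7 CPM in control ileum 1, 2, 3 and 5. Colon 4 lay within the ileum range, and the other colon libraries lay above it. Ifit1 had the same form in the control colon, at 112, 239, 129, 15.8 and 146 CPM, as did Usp18, at 14.4, 32.7, 17.8, 3.19 and 21.6 CPM. In each of the 3 genes colon 2 was highest and colon 4 lowest. Colon 4 and colon 2 held 23.4 and 44.5 CPM of summed T and natural killer cell markers, 191 and 148 CPM of macrophage markers and 15499 and 16664 CPM of epithelial markers. MHC class I genes summed to 3669 and 6298 CPM in the same pair. The part of cell content in this spread was not tested.

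**Figure D3:**
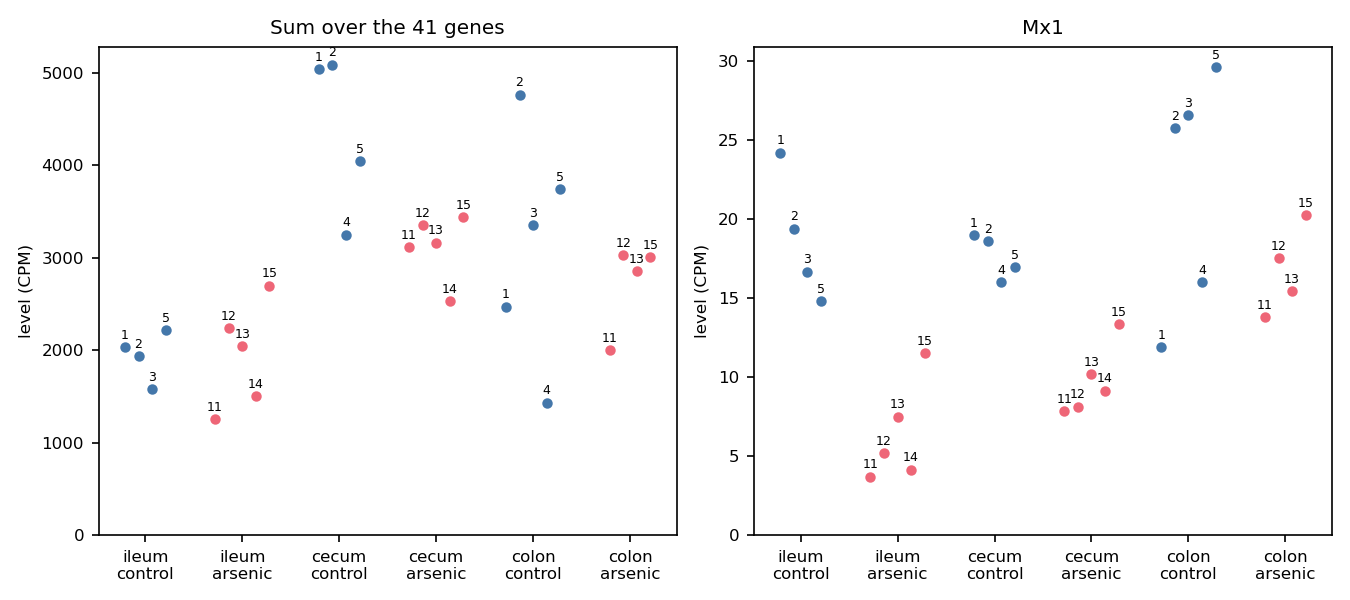
Summed level of the 41 genes (left) and level of Mx1 (right) in CPM for each library, by region and feed, with the replicate number of the labels above each point (blue control, red arsenic). The control colon spans the widest range on the left, and on the right the arsenic libraries lie below the controls in ileum and cecum.

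The second comparison asked how arsenic feed altered these genes, first in the cecum. Irf7, Ifih1, Dtx3l and 5 of 17 antiviral effectors were lower on arsenic feed, while Cxcl9, Cxcl10, Trim30b, Ifi213 and Iigp1 were higher. Of the 41 genes, 5 were higher and 8 lower on arsenic in the edgeR quasi-likelihood test, where 25.2% of 15590 genes were called, 11.3% higher and 13.9% lower. The share of members called, 31.7%, was near that of all genes. The median log2 fold change was -0.29 for the members, 30 of them negative, and 0.02 for all genes, and the feeds did not overlap for 11 members (22.2% of all genes). By role, 5 of 17 antiviral effectors were lower, 1 of 5 regulators was lower, 1 of 4 sensors was lower and 1 higher, 1 of 5 ligases was lower and 1 higher, 1 of 8 GTPases was higher, and both chemokines were higher. With upper-quartile scaling all genes split into 2448 higher and 1627 lower, against 1768 and 2165 with TMM, and the members kept 5 higher and 8 lower. Without control 4, the control with the lowest level of most members, the count was 3 higher and 20 lower. All genes then split into 1601 higher and 1999 lower of 15850. In a fit of all 27 libraries, 4 members were higher and 2 lower, and all genes split into 815 and 1206 of 17763. That fit lost the calls of Irf7, Oasl1, Ifih1, Ifi35, Iigp1, Oas1a and Oas2, with edgeR adjusted p of 0.116, 0.109, 0.107, 0.199, 0.253, 0.0778 and 0.0672.

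Mx1 encodes a dynamin-like GTPase that blocks influenza viruses, although C57BL/6 mice carry a deletion in the gene and make no working protein. Mx1 (ENSMUSG00000000386) was at 18.96, 18.6, 16.01 and 16.9 CPM in the 4 control libraries and at 7.86, 8.12, 10.2, 9.15 and 13.3 CPM in the 5 arsenic libraries. All controls lay above all arsenic libraries, and the level fell from 17.6 ± 1.40 to 9.73 ± 2.22 CPM (SD, n = 4 and 5), a log2 change of -0.82 ± 0.14 (edgeR adjusted p = 0.00078). Irf7 (ENSMUSG00000025498) was at 1019, 928, 756 and 798 CPM in the 4 control libraries and at 584, 533, 486, 413 and 589 CPM in the 5 arsenic libraries. The feeds did not overlap here either, and Irf7 fell from 875 ± 121 to 521 ± 73.5 CPM (SD, n = 4 and 5), a log2 change of -0.71 ± 0.12 (edgeR adjusted p = 0.00127). Oasl1 (ENSMUSG00000041827) was at 216, 214, 149.7 and 211 CPM in the 4 control libraries and at 137, 131, 103, 82.03 and 125 CPM in the 5 arsenic libraries. The lowest control, library 4, stood above the highest arsenic library, and Oasl1 fell from 198 ± 32.003 to 116 ± 22.9 CPM (SD, n = 4 and 5), a log2 change of -0.74 ± 0.17 (edgeR adjusted p = 0.0154). Ifih1 (ENSMUSG00000026896) was at 252, 265, 213 and 213 CPM in the 4 control libraries and at 177, 184, 173, 139.7 and 201 CPM in the 5 arsenic libraries. There was no overlap, and Ifih1 fell from 236 ± 26.6 to 175 ± 22.3 CPM (SD, n = 4 and 5), a log2 change of -0.39 ± 0.10 (edgeR adjusted p = 0.0127).

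Dtx3l is a ubiquitin ligase that works with Parp9, its neighbour in the genome. Dtx3l (ENSMUSG00000049502) was at 174, 191, 129.7 and 131 CPM in the 4 control libraries and at 87.1, 107, 92.2, 84.6 and 116 CPM in the 5 arsenic libraries. The feeds were separate, and Dtx3l fell from 157 ± 30.8 to 97.3 ± 13.5 CPM (SD, n = 4 and 5), a log2 change of -0.65 ± 0.14 (edgeR adjusted p = 0.00704), while Parp9 had a log2 fold change of -0.17 and was not called. Ifi35 (ENSMUSG00000010358) was at 39.7, 32.8, 24.6 and 28.2 CPM in the 4 control libraries and at 21.98, 20.8, 23.8, 19.2 and 23.8 CPM in the 5 arsenic libraries. The lowest control was just above the highest arsenic library, and Ifi35 fell from 31.3 ± 6.51 to 21.9 ± 1.98 CPM (SD, n = 4 and 5), a log2 change of -0.48 ± 0.12 (edgeR adjusted p = 0.012). Oas1a (ENSMUSG00000052776) was at 225, 232, 138 and 211 CPM in the 4 control libraries and at 142, 130.0, 134, 107 and 152 CPM in the 5 arsenic libraries. Control 4 fell among the arsenic libraries, and Oas1a fell from 202 ± 43.2 to 133 ± 16.9 CPM (SD, n = 4 and 5), a log2 change of -0.56 ± 0.16 (edgeR adjusted p = 0.0313). The call of Oas1a was lost without control 1, 2 or 5 and without arsenic 12 or 13, with adjusted p of 0.0829, 0.0796, 0.0761, 0.0699 and 0.062 in edgeR. Oas2 was lower, at -1.13 on the log2 scale (edgeR adjusted p = 0.0391), with overlapping feeds, and its call was lost in 8 of 9 fits that left out 1 library, every one but that without control 4, with adjusted p up to 0.0932.

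Several effectors with similar fold changes did not pass the test: Isg15 had -0.90 ± 0.31 (edgeR adjusted p = 0.0768), Rsad2 -0.85 ± 0.29 (0.0708) and Oasl2 -0.65 ± 0.27 (0.115). Isg15 was at 174, 159, 63.7 and 120.5 CPM on control feed and 78.3, 76.7, 71.2, 42.8 and 68.7 CPM on arsenic feed. Control 4 alone lay within the arsenic range, and the other 3 controls were above it.

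The chemokines rose from a low level. Cxcl9 (ENSMUSG00000029417) was at 1.02, 0.515, 0.635 and 0.761 CPM in the 4 control libraries and at 2.24, 2.39, 3.35, 2.26 and 1.57 CPM in the 5 arsenic libraries. Every arsenic library exceeded every control, and Cxcl9 rose from 0.734 ± 0.218 to 2.36 ± 0.638 CPM (SD, n = 4 and 5), a log2 change of 1.71 ± 0.29 (edgeR adjusted p = 0.000814). Cxcl10 (ENSMUSG00000034855) was at 1.02, 0.451, 0.353 and 0.317 CPM in the 4 control libraries and at 1.85, 2.01, 1.96, 1.54 and 1.57 CPM in the 5 arsenic libraries. The feeds did not overlap, and Cxcl10 rose from 0.536 ± 0.331 to 1.79 ± 0.218 CPM (SD, n = 4 and 5), a log2 change of 1.76 ± 0.33 (edgeR adjusted p = 0.00168). On control feed the ileum held more of both, with 7.996 ± 1.54 CPM of Cxcl9 and 3.09 ± 1.36 CPM of Cxcl10 (SD, n = 4).

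Trim30b, Ifi213 and Iigp1 were the other genes that rose. Trim30b (ENSMUSG00000052749), a relative of Trim30a, was at 0.705, 0.902, 0.494 and 0.317 CPM in the 4 control libraries and at 2.75, 3.27, 4.49, 1.72 and 1.03 CPM in the 5 arsenic libraries. The feeds did not overlap, and Trim30b rose from 0.604 ± 0.254 to 2.65 ± 1.35 CPM (SD, n = 4 and 5), a log2 change of 2.16 ± 0.44 (edgeR adjusted p = 0.00355). Ifi213 (ENSMUSG00000073491) was at 0.769, 0.580, 0.635 and 0.825 CPM in the 4 control libraries and at 6.71, 4.15, 11.6, 2.08 and 1.09 CPM in the 5 arsenic libraries. The arsenic libraries were spread widely above the controls, which were close together, and Ifi213 rose from 0.702 ± 0.114 to 5.13 ± 4.22 CPM (SD, n = 4 and 5), a log2 change of 2.90 ± 0.75 (edgeR adjusted p = 0.0243). This call was lost without control 1, 2, 4 or 5, with edgeR adjusted p of 0.0653, 0.0711, 0.0672 and 0.061. Iigp1 (ENSMUSG00000054072) was at 4.10, 5.35, 3.31 and 5.14 CPM in the 4 control libraries and at 5.62, 7.74, 7.91, 11.998 and 5.40 CPM in the 5 arsenic libraries. The lowest arsenic library was just above the highest control, and Iigp1 rose from 4.48 ± 0.947 to 7.73 ± 2.65 CPM (SD, n = 4 and 5), a log2 change of 0.82 ± 0.23 (edgeR adjusted p = 0.0201), a call lost without control 1 or 4 (edgeR adjusted p = 0.0623 and 0.0544). The other GTPases, Gbp2, Gbp3, Gbp6, Gbp7, Igtp, Irgm1 and Irgm2, were not called.

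**Figure D4:**
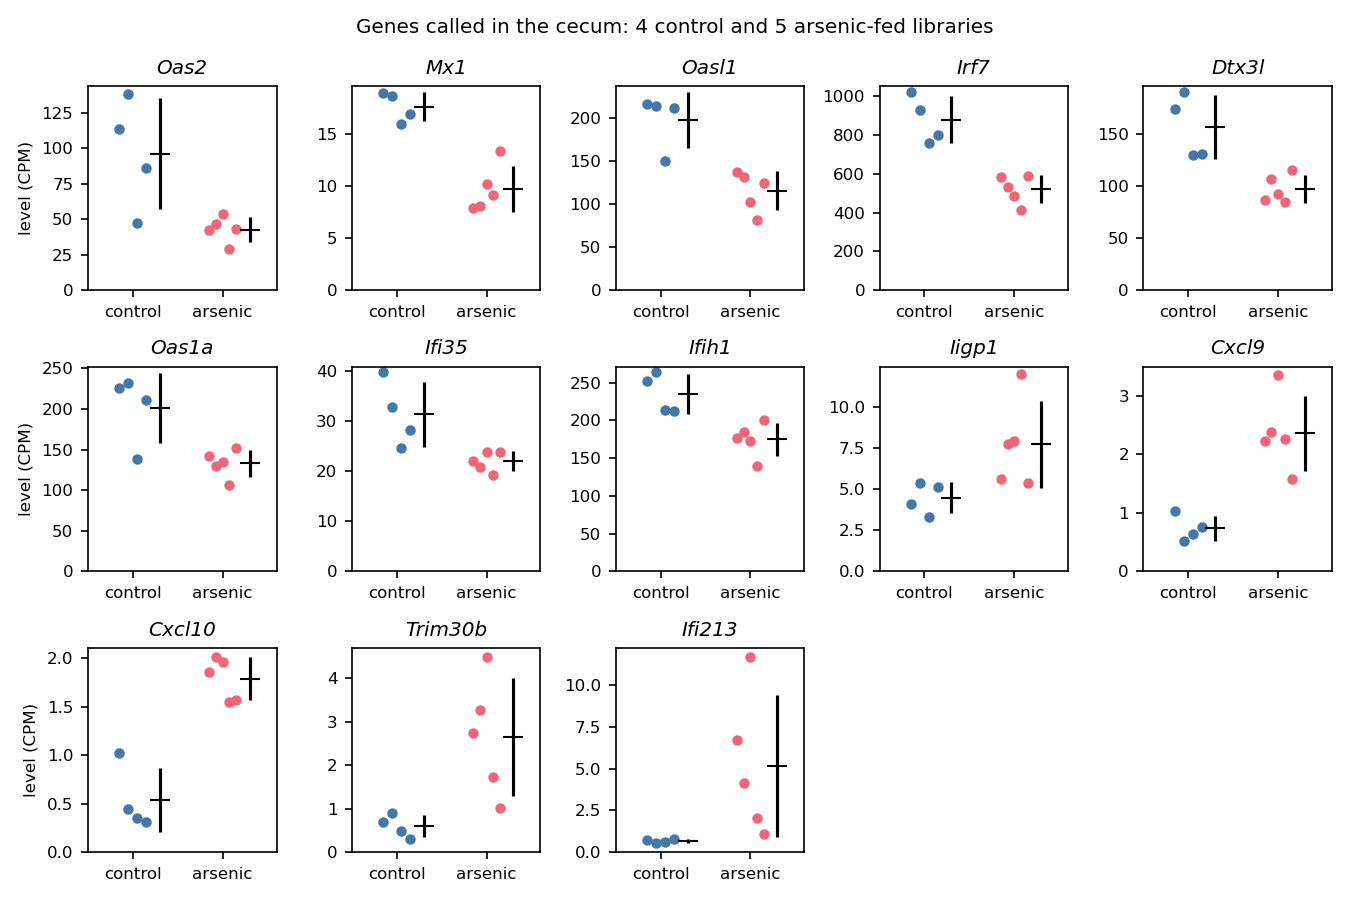
Level in CPM of the 13 genes called in the cecum, in 4 control (blue) and 5 arsenic-fed (red) libraries, ordered by fold change, each panel from 0 on its own scale. Bars give mean ± SD of each group. For Oas2 and Oas1a the feeds overlap, and for the other 11 genes the feeds do not overlap.

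Further pathway genes in the cecum also leaned lower: 3 of 46 were higher and 15 lower on arsenic, 39.1% called against 25.2% of all genes. Mavs, the adaptor below MDA5, differed by -0.59, Samhd1, which depletes nucleotides, by -0.50, Ifnar1 by -0.47 and Irf3 by -0.32. The 3 higher genes were Tlr9 (1.77), Irf5 (0.99) and Tmem173, which encodes STING (0.56). Markers of other cells moved with feed too. Of 10 T and natural killer cell markers tested, 4 were higher (Cd3e, Cd3d, Cd4 and Trac) and 0 lower, with sums of 25.6 to 47.5 CPM on control and 33.8 to 58.0 CPM on arsenic feed. B cell markers were called in 0 of 7, 6 of them at an unadjusted p under 0.05, with sums of 2.61 to 40.2 and 9.51 to 192.6 CPM. Of 8 epithelial markers 0 were higher and 3 lower (Cdh1, Krt18 and Krt20), with sums of 21457 to 23687 CPM on control and 18229 to 21619.8 CPM on arsenic feed. Smooth muscle markers had 2 of 6 higher, endothelial markers 2 of 5 higher, macrophage markers 1 of 8 lower, and plasmacytoid dendritic cell markers 0 of 5 called with Cox6a2 at 0 in the control cecum. Every T, natural killer, B and epithelial marker was above 0 in both groups, and their part in the members' differences was not tested.

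Genes of the circadian clock separated the feeds as well: 10 of 13 were called in the cecum, 6 higher and 4 lower. The mean log2 level of 7 clock output genes minus that of 4 activator-arm genes was -0.56 to 0.38 in the control cecum and 1.09 to 1.67 in the arsenic cecum. In the colon it was 0.08 to 1.03 and 1.37 to 2.53, again without overlap, and in the ileum -0.14 to 0.92 and 0.76 to 2.21, with overlap. The labels give no hour of collection, so feed and clock phase cannot be told apart in the cecum and colon.

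In the ileum, Mx1 was the 1 member called on arsenic feed, lower, where 7.30% of 16305 genes were called (4.02% higher, 3.28% lower). Mx1 was at 24.2, 19.4, 16.7 and 14.8 CPM in the 4 control libraries and at 3.70, 5.20, 7.50, 4.14 and 11.5 CPM in the 5 arsenic libraries. All 5 arsenic libraries lay below all 4 controls, and Mx1 fell from 18.8 ± 4.08 to 6.41 ± 3.20 CPM, a log2 change of -1.60 ± 0.31 (edgeR adjusted p = 0.0185). Without control 1, 2 or 3 the edgeR adjusted p was 0.0589, 0.0715 and 0.0595. Leaving out arsenic 14 and 15, the libraries with low Fabp6, an alternative chosen after seeing the data, gave 1 member called, 673 of all genes called against 1190, and -1.78 for Mx1 on the log2 scale (edgeR adjusted p = 0.0166). Dhx58 was next, at 5.82, 5.67, 3.44 and 6.39 CPM on control and 7.30, 8.84, 11.8, 7.58 and 11.1 CPM on arsenic feed. Its libraries did not overlap either, and its log2 fold change of 0.76 ± 0.22 did not pass (edgeR adjusted p = 0.0594). The other 39 members overlapped between the feeds, and the median of the 41 was -0.01, with 20 positive and 21 negative. At an unadjusted p under 0.05 there were 3 members. Of the 46 other pathway genes, 1 was called, Ikbke (-0.73), a kinase that activates IRF3 and IRF7.

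In the colon, 0 of 41 members were called, where 0.649% of 16492 genes were, and 1, the tetherin gene Bst2, had an unadjusted p under 0.05. DESeq2 also called 0 members, and so did RLE and upper-quartile scaling, both other filters, the fit of all 27 libraries and every fit that left out 1 library. Without control 1, the library lacking Hoxb13, 351 of all genes were called against 107, and 0 members. The fold changes were negative for 36 of 41, with a median of -0.21 against -0.01 for all genes, and 0 members had feeds that did not overlap (7.82% of all genes). These signs are not independent, because the members varied together among the control colon libraries, where control 2 was highest for 34 of 41. Mx1 was at 11.9, 25.8, 26.6, 15.99 and 29.6 CPM on control and 13.8, 17.5, 15.5 and 20.3 CPM on arsenic feed, a log2 difference of -0.38 ± 0.26 (edgeR adjusted p = 0.56). Control 4 lay within the arsenic range, control 1 below it and the other 3 controls above it. Irf7 was at 483, 567, 324, 129.7 and 536 CPM and 236, 430.5, 389.9 and 380.0 CPM, a log2 difference of -0.18 ± 0.39 (edgeR adjusted p = 0.9). The control range enclosed the arsenic range. Of the other pathway genes, Mavs alone was called (-0.58).

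Whether the arsenic effect itself differed between the 3 regions was tested as an interaction over all 27 libraries. Of the 41 members 3 were called, where 7.62% of 17763 genes were, and 7 had an unadjusted p under 0.05. Cxcl9 had log2 fold changes on arsenic of 0.14 for ileum, 1.71 for cecum and -0.06 for colon (edgeR adjusted p of the interaction = 0.0326). Ifi213 had -0.49, 2.90 and -0.19 (edgeR adjusted p = 0.0348), and its level was 2.32, 6.13, 1.81 and 5.96 against 2.50, 3.12, 6.28, 1.56 and 1.26 CPM in the ileum and 0.476, 0.950, 2.27, 1.89 and 0.787 against 0.388, 1.98, 1.46 and 0.596 CPM in the colon. In both of those regions its feeds overlapped. Oas1a had 0.55, -0.56 and -0.24 (edgeR adjusted p = 0.0449), the ileum and cecum fold changes having opposite signs. Leaving out 1 library lost the call of Oas1a in 19 of 27 fits, of Ifi213 in 8 and of Cxcl9 in 6. For Cxcl9 these were the fits without ileum control 2, cecum control 2, cecum control 4, cecum control 5, cecum arsenic 13 and colon arsenic 15, with adjusted p up to 0.0849, and for Ifi213 those without ileum control 2, ileum control 5, cecum control 1, cecum control 2, cecum control 4, cecum control 5, cecum arsenic 11 and cecum arsenic 13, with adjusted p up to 0.0818. For Oas1a the adjusted p went up to 0.104 in those fits, and it was 0.0584 with RLE scaling and 0.0911 with upper-quartile scaling and 0.108 with no filter in edgeR. With no filter the adjusted p of Ifi213 was 0.0898 in edgeR. Mx1 was not called, with fold changes of -1.60, -0.82 and -0.38 in ileum, cecum and colon (edgeR adjusted p = 0.122).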

How the data were processed

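Poly-A RNA libraries from 27 gut samples were sequenced as paired-end reads, per the labels' protocols. The authors deposited 1 table of raw read counts per Ensembl gene, with no normalization. HTSeq 0.6.0, DESeq2 1.6.3, SAMtools and HISAT2 2.1.0 were used, per the submitters' processing notes. The genome build, annotation and strand setting are not given in the sources used here. Library totals of 15717600 to 18208518 counts limit precision for genes at a few CPM. Symbols matched 52403 of 52550 identifiers.

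From these deposited counts, edgeR 4.0.16 (R 4.3.3, limma 3.58.1) was run with filterByExpr (minimum count 10, minimum total 15), TMM scaling, robust quasi-likelihood F-tests and Benjamini-Hochberg adjustment over all genes tested, with calls at an adjusted p under 0.05. Arsenic and control feed were compared within each region (9 libraries), regions on control feed in 1 fit of 13 libraries, and the interaction in all 27. Levels are TMM-scaled CPM, with lengths from GENCODE M21. The code was tested on simulated data. Alternatives were DESeq2 1.42.0, upper-quartile or RLE scaling, other filters, all libraries in 1 fit, a replicate block and leaving out each library; leaving out the low-Fabp6 ileum libraries was chosen after seeing the data. Promoter windows came from RefSeq GRCm38.p6. Figures used matplotlib 3.10.9.

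The 41 genes and all lists were chosen with earlier results of these data known. Full values are given for members called for feed or the interaction (the 12 with the smallest p where more were called), and for the 4 called members with the largest rise and the largest fall in each region comparison at a mean of at least 1 CPM. Other members named, among them Isg15, Ifit1 and Usp18 by library, were chosen after their values were seen.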

Additional observations from a re-analysis of the deposited data

Results flagged for a closer look

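Within groups of 4 or 5 libraries, 84 sets of values were examined for 1 library far from the rest. The sets held the 13 members called for feed and the sum over the 41 genes, and the other members were not examined. Of the 84 sets 2 had such a library, and chance alone gives about 1 in 20 such sets. Ifih1 in ileum control 2 was at 88.9 CPM while the other 3 control ileum libraries lay between 85.7 and 86.2 CPM, a narrow group. Oasl1 in cecum control 4 was at 149.7 CPM while the other 3 control cecum libraries lay between 211 and 216 CPM; this is the library with the lowest level for 35 of the 41 genes in its group.

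The effect of arsenic feed differed between gut regions for 3 of the 41 members, where 7.62% of 17763 genes were called. The test was the edgeR quasi-likelihood test of the interaction with Benjamini-Hochberg adjustment. The count was 0 without ileum control 2, cecum control 2, cecum control 5 or cecum arsenic 13. The adjusted p was 0.0326 for Cxcl9, 0.0348 for Ifi213 and 0.0449 for Oas1a in edgeR.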

How the results depend on the processing

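No called log2 fold change of a member named with values changed sign under the alternatives run, but the balance of calls did shift. Zbp1, which was not called in cecum against ileum, changed sign there with RLE and with upper-quartile scaling. In the cecum, 5 higher and 8 lower members became 4 and 2 in the fit of all 27 libraries, and 1768 higher and 2165 lower genes became 2448 and 1627 with upper-quartile scaling. In colon against cecum, 5 higher and 6 lower members became 5 and 3 with upper-quartile scaling, 8 and 4 without colon control 1, and 7 and 4 without colon control 4. The ileum count of 1 member became 2 in DESeq2 and 0 to 2 when single libraries were left out. The cecum count of 13 became 6 in the fit of all 27 libraries and 9 to 23 when single libraries were left out. The colon count ran from 0 to 0. Without single libraries the counts were 22 to 27 for cecum against ileum, 8 to 15 for colon against cecum and 19 to 25 for colon against ileum. The interaction count of 3 was 1 with no filter and 0 to 5 without single libraries, being 0 without ileum control 2, cecum control 2, cecum control 5 or cecum arsenic 13 and 5 without colon control 4.

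Over all genes, the ileum count of 1190 was 2105 in DESeq2, 2889 in 1 fit of all libraries and 121 to 1583 without single libraries. The cecum count of 3933 was 2021 in 1 fit of all libraries. The colon count of 107 was 656 in DESeq2, 493 in 1 fit and 6 to 351 without single libraries. The interaction count of 1353 was 827 with no filter and 551 to 1866 without single libraries. The cause of these shifts was not tested.

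With the replicate number as a block, 28 members were called for cecum against ileum, 16 for colon against cecum and 27 for colon against ileum. For the interaction 6 were called. Without the block these counts were 27, 11, 23 and 3. Over all genes the block gave 8837, 7751 and 8565 of 16882, and 1287 of 17763 for the interaction. Without it they were 9266, 7970, 8811 and 1353. The call of Irf1 in cecum against ileum was lost with the block (edgeR adjusted p = 0.0656). Deviations of same-numbered libraries correlated at -0.11 to 0.25 (median 0.12, 13 of 24 pairs over 0.1). Those of other pairs correlated at -0.26 to 0.20 (median -0.03, 9 of 97 over 0.1). Same-numbered libraries thus tended to be more alike, though the ranges overlapped. The main fits did not pair them because the labels state no pairing, and whether they share a mouse was not tested. Depth limits Trim30b, Cxcl10 and Ifi213, at around 1 CPM in several libraries. With no filter, the cecum feed calls of Oas2, Oas1a and Ifi213 were lost (edgeR adjusted p = 0.065, 0.0813 and 0.0552), as were the calls in colon against ileum of Ifi44, Bst2, Xaf1 and Ifit1 (edgeR adjusted p = 0.0556, 0.0841, 0.0801 and 0.0549).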
